A study of Mus musculus with 6 samples.

Results

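The genes described here are the epidermal growth factor (EGF) receptor family and its ligands. They are 10 genes of the 35275 in the deposited count table, taken by gene name: the 6 ligand genes Egf, Hbegf, Areg, Ereg, Tgfa and Btc and the 4 receptor genes Egfr, Erbb2, Erbb3 and Erbb4. Kidneys of wild-type C57Bl/6 mice were sequenced as poly-A RNA at day 28 after ischaemia-reperfusion injury, in which blood flow to the kidney is stopped and then restored. Blood flow was stopped for 35 min in the severe group (3 libraries, numbered 13, 14 and 15) and for 20 min in the mild group (3 libraries, numbered 7, 8 and 9). Both groups were injured, and age and sex are not stated in the labels, so each difference below is one between a longer and a shorter ischaemia. The labels do not say whether each kidney came from a separate mouse, and p-values therefore measure the spread between these samples, which may be technical in part.

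EGF family ligands are made as precursors in the cell membrane. Metalloproteases such as ADAM10 and ADAM17 cut them free, and the soluble ligand binds a receptor tyrosine kinase on the same or a nearby cell. EGF, amphiregulin (Areg) and transforming growth factor alpha (Tgfa) bind the EGF receptor, while heparin-binding EGF (Hbegf), epiregulin (Ereg) and betacellulin (Btc) also bind ErbB4. ErbB2 has no known ligand and acts as a partner of the other receptors, and ErbB3, whose own kinase is weak, binds neuregulins. In the kidney the EGF precursor is made mainly by the thick ascending limb and the distal convoluted tubule, and it is shed into the urine. Hbegf, Areg and Tgfa are known as ligands linked to tubule injury in mice.

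The libraries held 15240491 to 17730967 gene counts. Of the 10 genes, 8 had enough counts for a test among 14883 genes tested in all, and Areg and Ereg did not. Severe library 14 stood apart from the other severe libraries. It had the lowest summed level of proximal tubule markers, the highest of macrophage markers, and a TMM scaling factor of 1.17, against 0.974 and 1.04 in severe libraries 13 and 15 and 0.943 to 0.945 in mild libraries. The fold changes of the tested members and the ligand ratios are given with and without it. Levels are CPM, gene counts scaled to a fixed TMM-adjusted library size. Single levels of different genes are ranked as CPM per kilobase of the gene length in the table. The ratios of Egf to other ligands and the sums over marker lists are in plain CPM, so their sizes also depend on gene length. A fixed length cancels in the group differences of the log2 ratios.

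Egf was lower in severe kidneys, and it was the member that differed most among the 8 tested. It had 1125, 339 and 875 CPM in severe libraries 13, 14 and 15, against 1560, 1588 and 1539 CPM in mild libraries 7, 8 and 9. The groups did not overlap, the mild libraries lay close together, and severe library 14 was by far the lowest of the 6. These levels are 72.0%, 21.7% and 56.0% of the mild mean in severe libraries 13, 14 and 15. The mean was 779.5 ± 402 CPM in severe kidneys and 1563 ± 24.6 CPM in mild kidneys (SD, n = 3 each), so the SD was larger in severe kidneys. The log2 fold change was -1.003 ± 0.38 (SE), which was the 43rd lowest of 14883 genes tested, and it did not pass the threshold of 0.05 (edgeR quasi-likelihood test; adjusted p = 0.178 by Benjamini-Hochberg, unadjusted p = 0.0308). In a bulk kidney sample, fewer cells that make a transcript and less of that transcript per cell cannot be told apart.

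The call for Egf changed with severe libraries 13 and 14 and with the tool. Without severe library 14 the log2 fold change was smaller, at -0.64 ± 0.11, yet it passed (edgeR, adjusted p = 0.0163), and 3.33% of all tested genes passed in that fit. Without severe library 13 it was -1.36 ± 0.35 and passed (edgeR, adjusted p = 0.0335), as did 21.5% of all genes. With all 6 libraries, DESeq2 called Egf (log2 fold change -1.01 ± 0.34, adjusted p = 0.0432) and 7.87% of all genes, and limma-voom with sample quality weights called Egf (-0.85 ± 0.15, adjusted p = 0.00323) and Egfr among 33.9% of all genes. Without such weights limma-voom did not call Egf (-1.16 ± 0.43, adjusted p = 0.190). In edgeR on all 6 libraries, 0 of the 8 tested members passed, beside 0.0134% of all tested genes, and 1 of the 8, Egf, had an unadjusted p under 0.05. Egf was also the 1 tested member whose severe libraries all lay below the mild ones, as 16.1% of all tested genes did. Of the tested members 0 had all severe libraries above all mild ones, as 17.9% of all tested genes did.

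**Figure D1:**
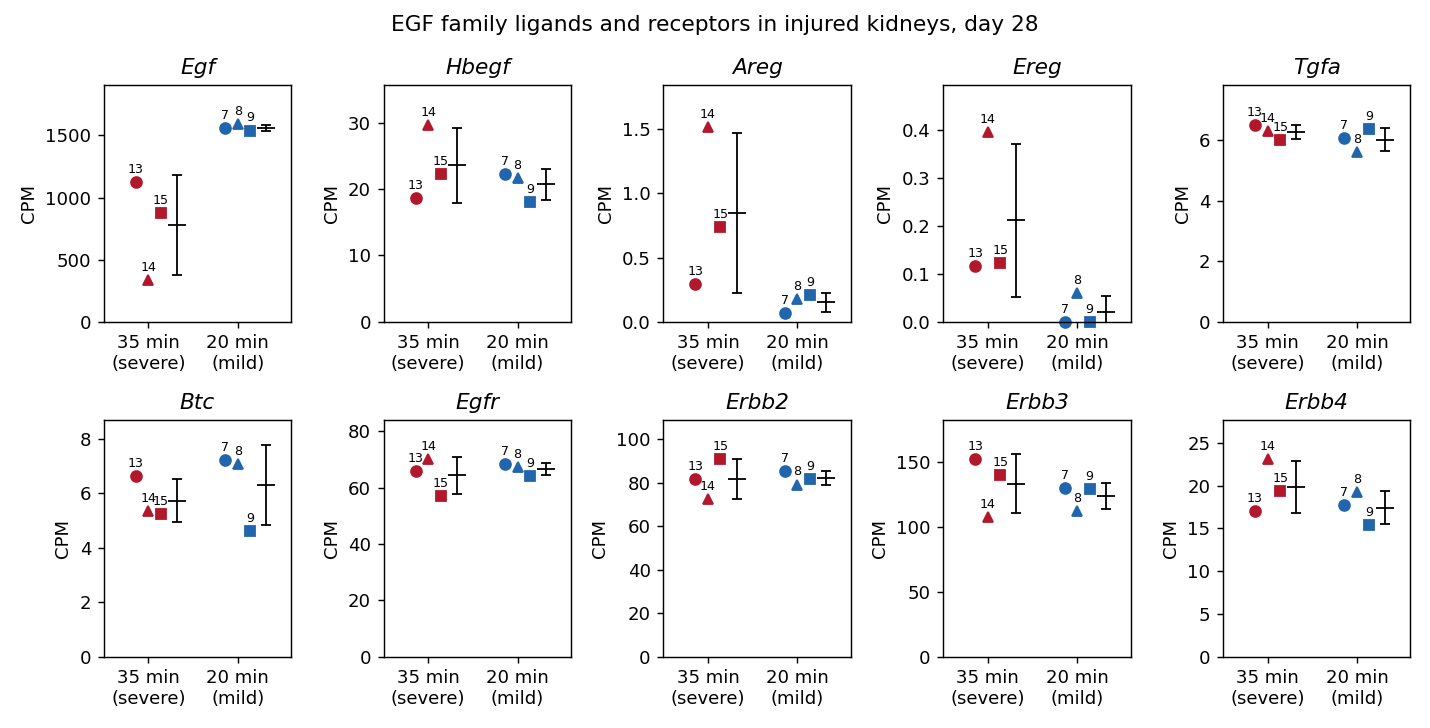
Level of each EGF family gene in CPM (vertical axes, linear from 0) in the 3 severe and the 3 mild libraries, each point labelled with its library number; the horizontal tick and bar are the mean and SD (n = 3). Egf lies between 339 and 1125 CPM in severe libraries, below the mild libraries, while the receptor panels overlap between the groups.

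RefSeq promoter sequence (build GRCm38.p6) was at hand for 7 of the 10 genes, and the 250 bases before the first transcribed base are shown for Egf and, further on, for Areg. Egf had a further RefSeq start inside the gene, whose stretch at chr3:129725087-129725336 is not shown and held none of the motifs searched. The Egf stretch shown lies on the minus strand at chr3:129755323-129755572, and the gene itself spans 129677575 to 129755322 on chromosome 3 (mm10, ENSMUSG00000028017). Searches on both strands for a TATA box (TATAAA), an AP-1 site (TGANTCA), a full cyclic AMP response element (TGACGTCA), its part TGACG and a GC box (GGGCGG) found none of these letters in it, so it has no capitals.
Egf: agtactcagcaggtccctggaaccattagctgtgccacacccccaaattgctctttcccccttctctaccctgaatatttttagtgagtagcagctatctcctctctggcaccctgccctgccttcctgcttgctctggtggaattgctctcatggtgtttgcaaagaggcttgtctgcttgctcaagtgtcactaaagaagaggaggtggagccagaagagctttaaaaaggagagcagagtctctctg

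Egf was set beside markers of the segments that make it. Of 10 thick ascending limb markers, 0 passed (edgeR; 0 higher and 3 lower at an unadjusted p under 0.05; 3 lower with DESeq2, 0 with limma-voom, 5 lower with quality weights), 4 were lower in every severe than in every mild library, and the median log2 fold change was -0.35 (-0.18 without severe library 14). Of 9 distal convoluted tubule markers, 0 passed (edgeR; 1 higher and 3 lower at an unadjusted p under 0.05; 2 lower with DESeq2, 0 with limma-voom, 1 higher and 5 lower with quality weights), 5 were lower without overlap, and the median was -0.34 (-0.14 without severe library 14). Over all 14883 tested genes the median was 0.00019, 2352 were higher and 1175 lower at an unadjusted p under 0.05, DESeq2 called 1029 higher and 142 lower, and quality weights called 2706 higher and 2335 lower. Of all tested genes, 16.1% were lower and 17.9% higher without overlap. In both lists 0 markers had a lower log2 fold change than Egf, and neither did any of 12 collecting duct markers (median -0.18, and -0.10 without severe library 14) or 15 proximal tubule markers (median -0.51, and -0.28 without it). Egf had the 43rd lowest log2 fold change of all 14883 tested genes, so few genes of any kind lay below it.

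The nearest to Egf among these markers was Pvalb, the calcium-binding protein parvalbumin of the early distal convoluted tubule. It had 13.3, 4.501 and 10.1 CPM in severe libraries 13, 14 and 15, against 16.3, 18.7 and 19.8 CPM in mild libraries 7, 8 and 9 (log2 fold change -0.98 ± 0.33; edgeR, adjusted p = 0.148; -0.64 without severe library 14, where it passed with adjusted p = 0.0362). Slc8a1, the sodium-calcium exchanger, had 23.3 ± 1.33 CPM in severe and 31.4 ± 0.732 CPM in mild kidneys (log2 fold change -0.43 ± 0.08; edgeR, adjusted p = 0.0867; -0.39 without severe library 14, where it passed with adjusted p = 0.0325). Further genes outside the naming rule were picked after their values were seen. Umod, which encodes the thick ascending limb protein uromodulin, was at -0.36 ± 0.24 on the log2 scale, severe over mild (-0.17 with library 14 left out). Slc12a3, the thiazide-sensitive cotransporter, was at -0.46 ± 0.22 (-0.26 with it left out). Some markers went the other way. The distal convoluted tubule marker Trpv5, which is within the naming rule, was at 0.45 ± 0.19 with overlapping groups (edgeR, adjusted p = 0.204; 0.22 without severe library 14). Of the thick ascending limb markers, Cldn19, Cldn16 and Sostdc1 were at 0.10, 0.05 and 0.03, and they too were picked after their values were seen. The other markers of both lists had negative log2 fold changes.

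By library, Egf lay further below its mild mean than the median marker of these segments did. This does not hold for each single marker, and Pvalb lay close to Egf in all severe libraries. In severe library 13 the thick ascending limb marker Bsnd lay further below its own mild mean than Egf did. Bsnd had 45.1 CPM there, against 72.5, 69.6 and 54.4 CPM in mild libraries 7, 8 and 9. With each gene taken against its own mild mean on the log2 CPM scale, Egf minus the median thick ascending limb marker was -0.42, -1.41 and -0.52 in severe libraries 13, 14 and 15. Egf minus the median distal convoluted tubule marker was -0.39, -1.505 and -0.63 there. In mild libraries 7, 8 and 9 the first gap was -0.05, -0.02 and 0.08, and the second 0.04, 0.06 and -0.10. These gaps are descriptions without a test.

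The 5 tested genes most like Egf over the 6 libraries, by the root mean square difference of centred log2 CPM, were Dnase1 (0.0696), Pvalb (0.117), Dusp15 (0.140), Pde6a (0.142) and Ces2b (0.157). Dnase1, a secreted deoxyribonuclease gene, had 118, 35.5 and 104 CPM in severe libraries 13, 14 and 15, against 179, 167 and 166 CPM in mild libraries 7, 8 and 9. Its log2 fold change of -0.99 ± 0.37 did not pass (edgeR, adjusted p = 0.175). Like Egf, all 5 had their lowest level in severe library 14. They were chosen for likeness to Egf over these same 6 libraries, so this shared low point is no separate finding.

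Among the severe libraries, the medians of injury markers were higher where Egf was lower, an order that was not tested. The 15 injured tubule markers summed to 3256, 10910 and 5983 CPM in severe libraries 13, 14 and 15 and to between 2459 and 3209 CPM in mild libraries, with 6 of 15 higher and 1 lower without overlap. Their median stood 0.27, 2.06 and 1.14 above the mild mean on the log2 scale in severe libraries 13, 14 and 15, so library 13 had the smallest value of the severe libraries for injury markers and also for the shortfall of Egf. The 14 macrophage markers summed to between 664 and 1306 CPM in severe and 361 and 437.5 CPM in mild libraries, with 13 of 14 higher without overlap. The 11 fibroblast and myofibroblast markers summed to between 1313 and 4235 CPM in severe and 650 and 798 CPM in mild libraries, with 11 of 11 higher without overlap. Most of the injured tubule sum was Spp1 in every library (2294, 8256 and 4368 CPM in severe libraries 13, 14 and 15). Most of the fibroblast sum was Col1a1, Col1a2 and Col3a1. Spp1 and Col3a1 were named after their values were seen. None of these markers was at 0 in all libraries. In edgeR 0 of these markers passed, while DESeq2 called 9 of 15 injured tubule, 14 of 14 macrophage and 11 of 11 fibroblast markers higher. In edgeR without severe library 13, 14 injured tubule, 14 macrophage and 11 fibroblast markers were called higher, and without severe library 14 the counts were 0, 9 and 2. Of all tested genes, 17.9% were higher and 16.1% lower without overlap. DESeq2 called 7.87% of all tested genes, and edgeR called 21.5% without severe library 13 and 3.33% without severe library 14. The part of these markers in the Egf difference was not tested.

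**Figure D2:**
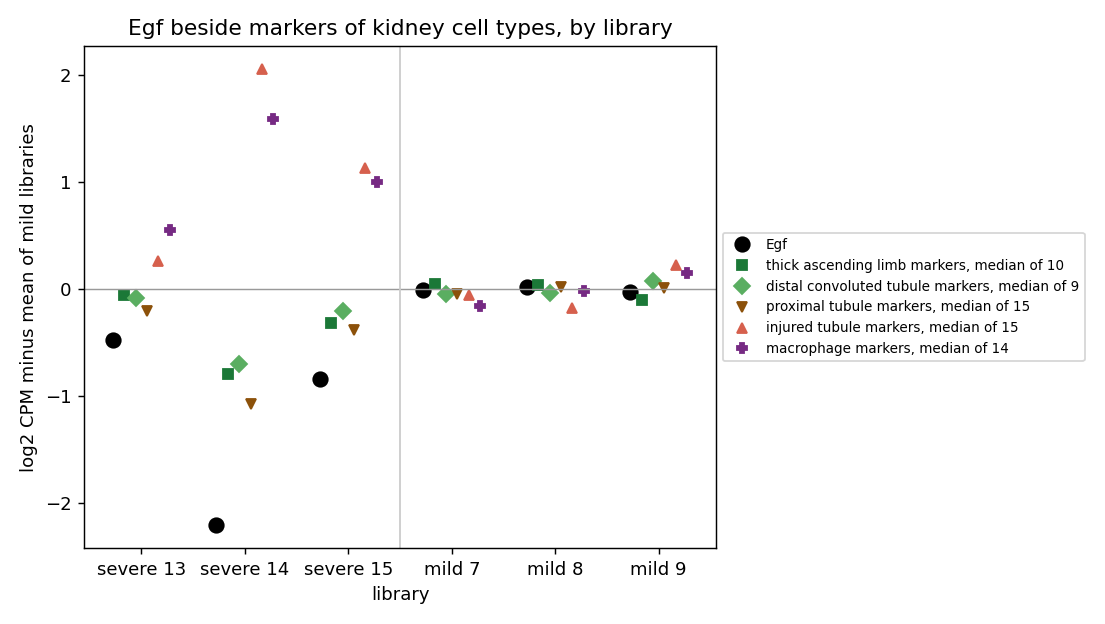
Egf and the medians of marker lists by library: log2 CPM minus the mean of the mild libraries (vertical axis) for the 3 severe libraries on the left and the 3 mild ones on the right. Egf (black circles) lies at -0.47, -2.21 and -0.84 in severe libraries 13, 14 and 15, below the medians of all plotted tubule segments, while injured tubule and macrophage medians lie above 0 there.

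Areg, the amphiregulin gene, was rare in all libraries and had more counts in severe kidneys. It had 5, 27 and 12 counts in severe libraries 13, 14 and 15, against 1, 3 and 3 counts in mild libraries 7, 8 and 9. The severe libraries were all above the mild ones, with 27 of the 44 severe counts in library 14. The rate over the pooled severe libraries was 5.62 times that over the pooled mild ones (95% exact interval from counting error alone, 2.51 to 14.8), and 3.32 times without severe library 14 (1.31 to 9.48). The filter on low counts removed Areg. In a fit without that filter its log2 fold change was 2.42 ± 0.70 and did not pass (edgeR, adjusted p = 0.107). In the fit without severe library 13, where Areg met the filter, it was 2.84 ± 0.59 and passed (edgeR, adjusted p = 0.0159), and it met the filter without any 1 mild library too, where it did not pass (adjusted p from 0.287 to 0.339). In these fits only severe libraries 14 and 15, with 27 and 12 counts, had enough counts for the filter. The pass therefore rests on a filter met only in the group where Areg was high, and it is no separate support. Ereg, the next annotated gene to Areg on chromosome 5, had 2, 7 and 2 counts in severe libraries 13, 14 and 15, against 0, 1 and 0 in mild libraries 7, 8 and 9. Its ratio over pooled libraries was 9.83 with an interval from 1.43 to 423, and without severe library 14 it was 5.47 with an interval from 0.542 to 269.5. A library with 0 counts can hold up to 3 by counting error, which is 0.207 CPM in mild library 7 and 0.206 CPM in mild library 9.

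The Areg stretch lies on the plus strand at chr5:91139349-91139598, and the gene spans 91139615 to 91148432 on chromosome 5 (mm10, ENSMUSG00000029378). Capitals mark, from the 5′ end, the part TGACG read on the other strand, the full cyclic AMP response element, the GC box and the TATA box.
Areg: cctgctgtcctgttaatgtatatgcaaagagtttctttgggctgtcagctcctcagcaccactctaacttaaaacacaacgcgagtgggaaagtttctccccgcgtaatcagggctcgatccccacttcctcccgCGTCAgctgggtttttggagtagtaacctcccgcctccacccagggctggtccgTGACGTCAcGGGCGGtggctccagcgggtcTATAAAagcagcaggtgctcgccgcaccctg
The full cyclic AMP response element TGACGTCA begins 61 bases before the first transcribed base and holds the part TGACG on both strands. The same 8 letters occur in 1.55% of 32851 RefSeq windows of this length. TATAAA begins 31 bases before the start, and 12.4% of the windows hold it on either strand. GGGCGG occurs in 32.7%, TGACG in 17.8% and TGANTCA in 6.75% of them. Such matches describe the letters and do not show that a factor binds.

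Hbegf, Tgfa and Btc did not differ between the groups beyond the spread of the libraries. Hbegf had 18.7, 29.7 and 22.3 CPM in severe libraries 13, 14 and 15, against 22.3, 21.7 and 18.1 CPM in mild libraries 7, 8 and 9. The groups overlapped and library 14 was the highest. The log2 fold change was 0.19 ± 0.17 (edgeR, adjusted p = 0.511) and -0.015 ± 0.12 without severe library 14. Tgfa had 6.51, 6.30 and 6.03 CPM in severe libraries 13, 14 and 15, against 6.07, 5.63 and 6.38 CPM in mild libraries 7, 8 and 9 (log2 fold change 0.06 ± 0.14; edgeR, adjusted p = 0.802; 0.059 without severe library 14). It had the narrowest spread of the ligands in severe kidneys relative to its level. Btc had 6.63, 5.35 and 5.23 CPM in severe libraries 13, 14 and 15, against 7.24, 7.07 and 4.598 CPM in mild libraries 7, 8 and 9 (log2 fold change -0.14 ± 0.21; edgeR, adjusted p = 0.702; -0.089 without severe library 14), and mild library 9 was the lowest of the 6. A p that misses the threshold does not show that the levels were equal.

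The balance between Egf and the other ligands was lower in severe kidneys for each ligand. The log2 ratio of Egf to Hbegf was 5.90, 3.51 and 5.29 in severe libraries 13, 14 and 15, against 6.12, 6.19 and 6.40 in mild libraries 7, 8 and 9. The severe mean minus the mild mean was -1.34, and -0.64 without severe library 14. For Egf to Tgfa the ratio was 7.41, 5.72 and 7.15 in severe libraries, against 7.98, 8.11 and 7.89 in mild libraries, a difference of -1.23 (-0.71 without severe library 14). For Egf to Btc the ratio was 7.38, 5.95 and 7.35 in severe libraries, against 7.73, 7.79 and 8.35 in mild libraries, a difference of -1.06 (-0.59 without severe library 14). In these 3 ratios all severe libraries lay below all mild ones (exact permutation test, two-sided, p = 0.1 for each, and 0.1 after Benjamini-Hochberg adjustment over the 3). With 3 against 3 libraries 0.1 is the smallest p this test can give, and the 3 ratios share Egf and so are not independent. Egf alone already lay apart between the groups, while Hbegf, Tgfa and Btc overlapped. The ratios are therefore no finding separate from the lower Egf. With Areg and Ereg, whose low counts make the ratio depend on the prior count of 2, the difference was -2.82 and -2.32 (-1.81 and -1.44 without severe library 14) and was not tested.

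**Figure D3:**
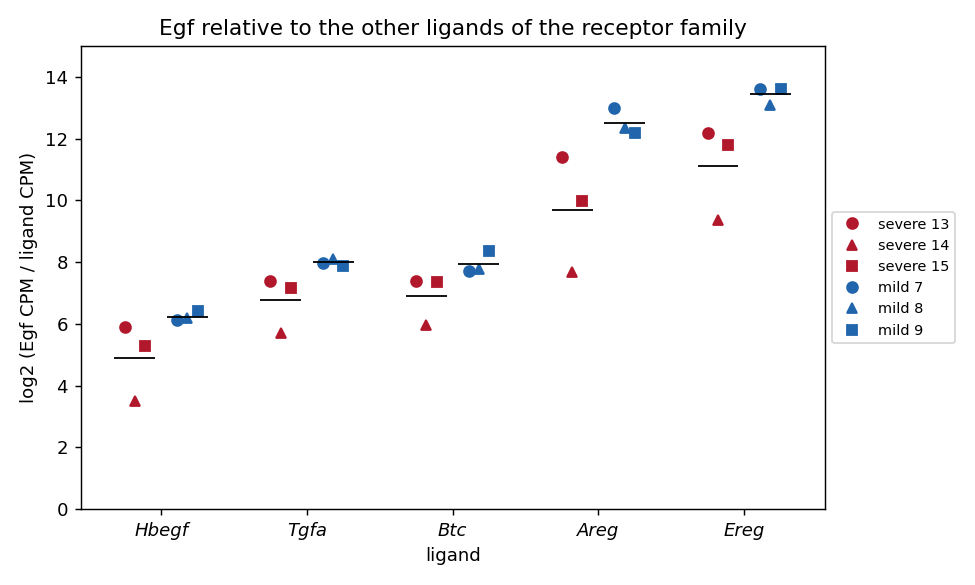
Ratio of Egf CPM to the CPM of each other ligand on a log2 scale (vertical axis) for 5 ligands, with severe libraries in red on the left of each pair and mild libraries in blue; horizontal lines are group means of 3 libraries. For Hbegf the severe libraries lie between 3.51 and 5.90 and the mild libraries between 6.12 and 6.40.

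Per kilobase, Egf was the most abundant ligand transcript in all 6 libraries. It made up 95.2%, 80.5% and 93.3% of the summed CPM per kilobase of the 6 ligands in severe libraries 13, 14 and 15, against 96.1%, 96.2% and 96.8% in mild libraries 7, 8 and 9. The summed ligand level was 248.5, 88.4 and 197 CPM per kilobase in severe libraries 13, 14 and 15 and between 334.5 and 347 in mild libraries. Without Egf the sum of the other 5 was 11.98, 17.2 and 13.3 in severe libraries 13, 14 and 15 and between 10.9 and 13.4 in mild libraries, so these overlapped. Hbegf came next, at 9.93 ± 2.37 CPM per kilobase in severe and 8.72 ± 0.972 in mild kidneys. It held 14.2% of the ligand sum in severe library 14, against 2.27% to 2.76% in mild libraries. Btc had 1.99 ± 0.271 in severe and 2.19 ± 0.514 CPM per kilobase in mild kidneys, and Tgfa had 1.49 ± 0.0579 in severe and 1.43 ± 0.0895 in mild kidneys. With the longest annotated transcript as the length, Btc (1.42 in severe, 1.57 in mild) and Tgfa (1.39 in severe, 1.33 in mild) were closer, so the gap between them rests on the length used. Areg (0.708 ± 0.519 in severe, 0.126 ± 0.0606 in mild) and Ereg (0.0510 ± 0.0383 in severe, 0.00483 ± 0.00836 in mild) were the lowest.

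The 4 receptor genes overlapped between the groups, with 0 of 4 passing in edgeR. Egfr had 65.9, 70.1 and 57.2 CPM in severe libraries 13, 14 and 15, against 68.3, 67.2 and 64.1 CPM in mild libraries 7, 8 and 9 (log2 fold change -0.05 ± 0.09; edgeR, adjusted p = 0.761; -0.11 without severe library 14). Library 15 was the lowest and library 14 the highest of the 6. With sample quality weights Egfr was called at -0.19 ± 0.06 (limma-voom, adjusted p = 0.0349). Erbb2 had 81.8, 72.3 and 90.8 CPM in severe libraries, against 85.4, 79.2 and 81.9 CPM in mild libraries (log2 fold change -0.01 ± 0.10; edgeR, adjusted p = 0.959; 0.071 without severe library 14). Erbb2 was highest in library 15 and lowest in library 14 of the 6.

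Erbb3 had 152.5, 108 and 141 CPM in severe libraries 13, 14 and 15, against 130, 112 and 130 CPM in mild libraries 7, 8 and 9 (log2 fold change 0.11 ± 0.14; edgeR, adjusted p = 0.642). Severe library 14 was the lowest and severe libraries 13 and 15 the highest, and without library 14 the log2 fold change was 0.24 ± 0.08 (edgeR, adjusted p = 0.114). Erbb4 had 17.0, 23.1 and 19.3 CPM in severe libraries, against 17.7, 19.2 and 15.4 CPM in mild libraries (log2 fold change 0.18 ± 0.14; edgeR, adjusted p = 0.426; 0.06 ± 0.12 without library 14). Per kilobase, the order within each of the 6 libraries was Erbb3, Erbb2, Egfr and Erbb4. The levels were 22.2 ± 3.84, 16.3 ± 1.85, 6.31 ± 0.646 and 1.65 ± 0.253 CPM per kilobase in severe kidneys and 20.6 ± 1.69, 16.4 ± 0.623, 6.52 ± 0.213 and 1.45 ± 0.161 in mild kidneys, in that order. Between libraries, Erbb3 (17.9 to 25.3) and Erbb2 (14.4 to 18.1) overlapped in severe kidneys. Erbb2 shares part of its span with Mien1 on the other strand, and reads there cannot be told apart where the strand setting of the counting is unknown.

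The same measure was taken for Hbegf, Egfr and Erbb4. The closest to Hbegf was Phip (root mean square difference 0.0379 over the 6 libraries), the closest to Egfr was the deubiquitinase gene Usp9x (0.0248) and the closest to Erbb4 was Rc3h2 (0.0323). All of these differences were smaller than the 0.0696 between Egf and Dnase1. Egf varied more over the libraries than Hbegf, Egfr and Erbb4 did, and the measure depends on such variation. The sizes therefore do not rank how closely genes go together.

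Other ErbB ligands were few. Of 5 listed, 2 had enough counts, and 0 passed (edgeR; 1 higher at an unadjusted p under 0.05; 0 with DESeq2 or limma-voom, 1 higher with quality weights). Nrg1, the neuregulin that binds ErbB3 and ErbB4, had 7.39, 12.8 and 8.67 CPM in severe libraries 13, 14 and 15, against 5.79, 6.17 and 6.86 CPM in mild libraries 7, 8 and 9. The groups did not overlap (log2 fold change 0.62 ± 0.22; edgeR, adjusted p = 0.160; 0.35 without severe library 14). Nrg3 had 0 counts in all libraries. For this list and those below, the share called over all tested genes was 7.87% with DESeq2 and 33.9% with quality weights. At an unadjusted p under 0.05 (edgeR), 2352 of all 14883 tested genes were higher and 1175 lower. Without overlap, 17.9% of all tested genes were higher and 16.1% lower.

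Of 10 genes for ligand shedding, 0 passed (edgeR; 4 higher at an unadjusted p under 0.05; 2 higher with DESeq2, 0 with limma-voom, 7 higher and 1 lower with quality weights). Without overlap 5 were higher and 1 lower in severe kidneys, and the median log2 fold change was 0.24. The 1 lower was Timp3, named after its values were seen, which encodes an inhibitor of metalloproteases and not a protease. It had 1056 ± 261 CPM in severe and 1463 ± 131 CPM in mild kidneys (log2 fold change -0.47 ± 0.21; edgeR, adjusted p = 0.221; -0.30 without severe library 14). Adam12, a metalloprotease that cuts Hbegf, had 18.2, 64.6 and 26.8 CPM in severe libraries 13, 14 and 15, against 8.13, 9.70 and 5.15 CPM in mild libraries 7, 8 and 9. Its log2 fold change was 2.25 ± 0.48 (edgeR, adjusted p = 0.0867), and 1.54 without severe library 14, where it passed (edgeR, adjusted p = 0.0396). Rhbdf2, which encodes the iRhom2 partner of ADAM17, was at 0.57 ± 0.18 and Frmd8, a binding protein of the iRhoms, was at 0.24 ± 0.09 (log2 fold changes; edgeR, adjusted p = 0.132 and 0.167). Adam17 itself, named after its values were seen, had 50.6 ± 4.99 CPM in severe and 44.9 ± 0.346 CPM in mild kidneys, with overlapping groups (log2 fold change 0.17, and 0.11 without severe library 14).

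Of 17 tested brakes on the receptors, 0 passed (edgeR; 5 higher at an unadjusted p under 0.05; 3 higher with DESeq2, 0 with limma-voom, 6 higher and 1 lower with quality weights), 7 were higher without overlap and the median log2 fold change was 0.16. Sh3kbp1, an adaptor of the Cbl ubiquitin ligases, had 11.4, 18.7 and 13.96 CPM in severe libraries 13, 14 and 15, against 6.55, 6.95 and 6.86 CPM in mild libraries 7, 8 and 9. The groups were well apart (log2 fold change 1.11 ± 0.19; edgeR, adjusted p = 0.0867), and it passed without severe library 14 (0.90; edgeR, adjusted p = 0.0147). Spry1 and Spry2 encode Sprouty inhibitors of receptor tyrosine kinase signalling, and their log2 fold changes were 0.83 ± 0.19 and 0.37 ± 0.11 (edgeR, adjusted p = 0.0883 and 0.128). Errfi1, the feedback inhibitor Mig-6 of the EGF receptor, was named after its values were seen and had 447 ± 134 CPM in severe and 497 ± 90.2 CPM in mild kidneys.

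Among 10 MAP kinase phosphatases, 0 passed (edgeR; 1 higher and 1 lower at an unadjusted p under 0.05; 1 lower with DESeq2, 0 with limma-voom, 1 higher and 2 lower with quality weights), and the median log2 fold change was 0.22 (0.14 without severe library 14). Dusp9 had 5.38 ± 1.35 CPM in severe and 9.45 ± 0.236 CPM in mild kidneys (log2 fold change -0.81 ± 0.20; edgeR, adjusted p = 0.0972; -0.62 without severe library 14, where it passed with adjusted p = 0.0431). Among 29 adaptors and kinases of the cascade, 0 passed (edgeR; 7 higher and 2 lower at an unadjusted p under 0.05; 0 with DESeq2 or limma-voom, 8 higher and 2 lower with quality weights), and the median log2 fold change was -0.00178. Their log2 fold changes lay between -0.20 and 0.47, the highest being Stat3 at 0.47 ± 0.15 (edgeR, adjusted p = 0.136; 0.29 without severe library 14). The calls with quality weights among the phosphatases and the cascade genes lie near the 33.9% of all tested genes called in that fit.

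The 19 tested early targets of ERK signalling, a kinase pathway that many receptors besides this family feed, had a median log2 fold change of 0.89 (0.46 with severe library 14 left out). Of these, 0 passed (edgeR; 10 higher and 1 lower at an unadjusted p under 0.05; 7 higher with DESeq2, 0 with limma-voom, 11 higher and 2 lower with quality weights), and 11 were higher and 1 lower without overlap. Over all tested genes DESeq2 called 7.87% and quality weights 33.9%. Sphk1, a sphingosine kinase, had 12.97, 21.8 and 14.7 CPM in severe libraries 13, 14 and 15, against 7.10, 8.14 and 8.30 CPM in mild libraries 7, 8 and 9. The groups were apart in all libraries (log2 fold change 1.07 ± 0.21; edgeR, adjusted p = 0.0867; adjusted p = 0.0162 without severe library 14). The transcription factor gene Egr2 had 3.61, 14.1 and 6.83 CPM in severe libraries, against 2.14, 2.46 and 2.13 CPM in mild libraries (log2 fold change 1.86 ± 0.47; edgeR, adjusted p = 0.1001; 1.21 without severe library 14, where it passed with adjusted p = 0.0436). The summed level of the list was lowest in severe library 13 and highest in library 14 among severe libraries (2728, 8868 and 4855 CPM in libraries 13, 14 and 15), against 2102 to 2624 CPM in mild libraries. Most of that sum was Spp1, which is also on the injured tubule list and was named after its values were seen (2294, 8256 and 4368 CPM in severe libraries 13, 14 and 15, against 1748, 1659 and 2190 CPM in mild libraries 7, 8 and 9).

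EGF is known to promote magnesium uptake in the distal convoluted tubule through the channel TRPM6. Of 10 tested genes of distal magnesium handling, 0 passed (edgeR; 2 lower at an unadjusted p under 0.05; 1 lower with DESeq2, 0 with limma-voom, 5 lower with quality weights), 6 were lower without overlap, and the median log2 fold change was -0.28, or -0.18 without severe library 14. Kcnj10, a potassium channel gene of the distal convoluted tubule, had 69.3, 45.2 and 62.1 CPM in severe libraries 13, 14 and 15, against 69.9, 79.5 and 78.9 CPM in mild libraries 7, 8 and 9. The groups did not overlap, although severe library 13 and mild library 7 were close (log2 fold change -0.37 ± 0.15; edgeR, adjusted p = 0.195; -0.21 without severe library 14). Trpm6, named after its values were seen, had 11.3, 10.8 and 12.97 CPM in severe libraries, against 11.8, 14.4 and 14.9 CPM in mild libraries, and the groups overlapped (log2 fold change -0.23 ± 0.14; edgeR, adjusted p = 0.317).

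Calls in these lists changed when severe library 13 or 14 was left out. Without severe library 13, where edgeR called 21.5% of all tested genes (2093 higher and 1176 lower), it called 6 thick ascending limb and 3 magnesium handling genes lower, 3 distal convoluted tubule markers lower and 1 higher, 4 shedding genes higher and 1 lower, 4 brakes, 5 cascade genes and 1 other ErbB ligand higher, 1 phosphatase higher and 1 lower, and 10 early targets higher and 2 lower. It also called 8 of 15 proximal tubule and 4 of 12 collecting duct markers lower there. The 4 of 17 brakes and 5 of 29 cascade genes lie near the share over all genes. Without severe library 14, where 3.33% of all tested genes were called (361 higher and 140 lower), it called 2 thick ascending limb and 2 distal convoluted tubule markers and 1 magnesium handling gene lower, 1 phosphatase lower, 2 proximal tubule markers lower, and 1 shedding gene, 1 brake and 2 early targets higher.

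**Figure D4:**
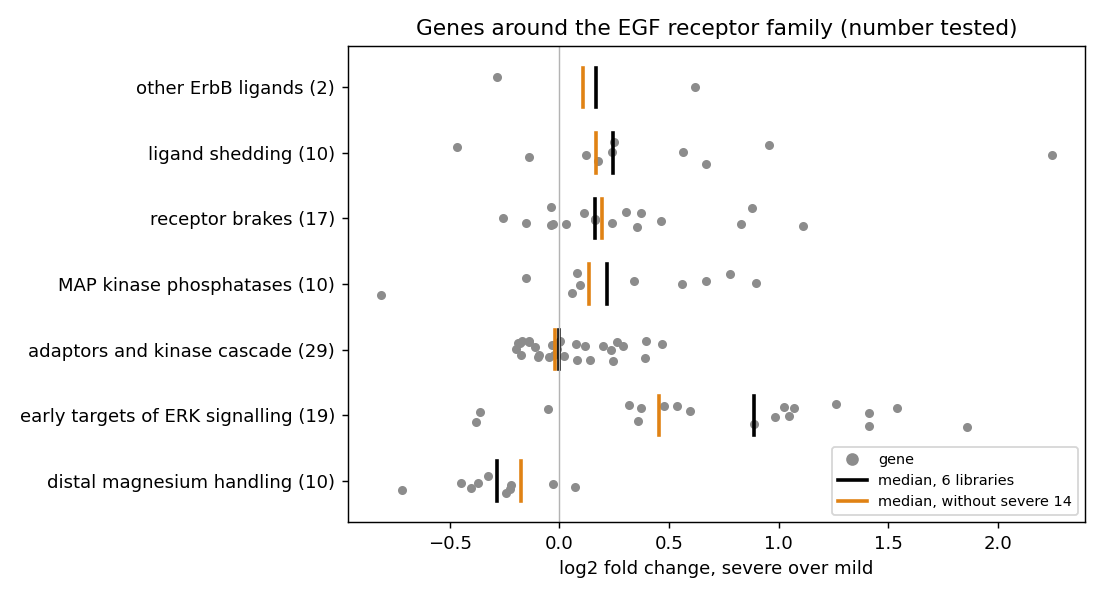
Log2 fold changes, severe over mild (horizontal axis), of tested genes in 7 lists around the EGF receptor family; each grey point is a gene, black lines are medians over 6 libraries and orange lines medians without severe library 14. Early targets of ERK signalling have the highest median, 0.89 and 0.46 without library 14, and distal magnesium handling the lowest, -0.28 and -0.18.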

How the data were processed

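Poly-A RNA from 6 kidneys was sequenced, 3 per group. Per the submitters' processing notes, Bowtie2 2.2.3, TopHat2 2.0.12, HTSeq 0.6.1 and build mm10 were used; for their roles, the strand setting and the annotation, details were not given in the sources used here. Deposited by the authors were raw read counts per Ensembl gene, with a gene length in bases whose definition is not stated. Columns name their group by minutes of ischaemia and match no sample title, so libraries carry the columns' numbers and were not paired; 0 columns of per-sample values were left out. Replicate libraries differed by 3.87 to 77.6 times the sampling noise (chi-square over its degrees of freedom), and no pair was taken as a repeat.

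Genes were filtered with filterByExpr, scaled by TMM and tested across all genes with the edgeR 4.0.16 quasi-likelihood F test (R 4.3.3, robust dispersion, Benjamini-Hochberg over all tested genes, threshold 0.05); standard errors are the log2 fold change over the root of F. Ratios and likeness used CPM on the log2 scale (prior count 2), and ratios were compared by exact permutation over 20 assignments (SciPy 1.17.1). Alternatives were other scalings and filters, DESeq2 1.42.0, limma 3.58.1 with and without quality weights, other prior counts, and each library left out. Members and lists were chosen with earlier results of these data known, so list counts are descriptions. Named list genes are the up to 4 with the smallest p in each list; genes named outside that rule are marked. The values of 1 listed gene are not reported here. Spry3 was in no row. Marker lists for podocytes, endothelium, lymphocytes, neutrophils and red cells had medians of -0.12, 0.06 and 0.27 for the first 3, with 0 of 6 neutrophil genes tested and a median of 1.90 over 3 red cell genes, whose sum was highest in severe library 13 (51.3 CPM). Promoter sequence was read from RefSeq tables.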

Additional observations from a re-analysis of the deposited data

How the results depend on the processing

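The count of genes past the threshold, 2 in the main test, was 1 with library totals as the scaling, 146 without a filter, 1171 with DESeq2 and 5041 with limma-voom and quality weights, and between 0 and 3269 with 1 library left out. The count of members past the threshold, 0 in the main test, was 1 with DESeq2, 2 with quality weights and between 0 and 2 with 1 library left out. The log2 fold change of Egf kept its sign under all 16 alternatives run (-1.36 to -0.64, adjusted p from 0.00323 to 0.381), and the 3 ratios of Egf to Hbegf, Tgfa and Btc kept theirs under all 8. Small fold changes changed sign: Hbegf lay between -0.015 and 0.34 with 1 library left out; Btc was 0.024 and Egfr 0.13 with library totals; Egfr lay between -0.11 and 0.031 with 1 library left out; Erbb2 was 0.022 with upper-quartile factors, 0.15 with library totals and 0.12 with quality weights, and between -0.093 and 0.071 with 1 library left out. Library totals put the median of all genes at 0.17 and upper-quartile factors at 0.033, and the values of Btc, Egfr and Erbb2 under library totals and of Erbb2 under upper-quartile factors lie below those shifts. The cause of the other changes was not tested. No paired analysis was possible because the libraries carry no shared replicate numbers. With about 0 to 27 counts a library, Areg and Ereg are limited by depth.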
